A study of Mus musculus with 6 samples.

Results

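The cadherins and non-clustered protocadherins are calcium-dependent adhesion receptors of the cell surface, and 35 of their genes, of 19938 genes measured, were followed over the 4 cell types of this study. Members were the genes whose symbol is Cdh or Pcdh followed by a number. The clustered Pcdha, Pcdhb and Pcdhg genes were left out, and where a gene had several measured transcripts the one with the highest mean was used. The study took mouse cells of strain 129 from epiblast stem cells to oligodendrocytes, with 1 Affymetrix whole-transcript array for each of 6 cultures. Oligodendrocytes (2 arrays, passages 3 and 11) were made from oligodendrocyte progenitor cells (OPCs) by adding thyroid hormone and withdrawing FGF2 and PDGF-AA. OPCs (2 arrays, passages 3 and 11) were grown in N2B27 medium with FGF2, PDGF-AA and sonic hedgehog (SHH) after dissociation of neural rosettes. Rosettes (1 array, day 5) were patterned with SB431542, Dorsomorphin, Noggin, retinoic acid and SHH. Epiblast stem cells (EpiSCs, 1 array), the pluripotent starting cells, were cultured in a knockout serum replacement medium containing FGF2. All groups derive from EpiSCs kept and differentiated in culture, and the labels do not say how many EpiSC lines were used.

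Classical cadherins join like cells at adherens junctions and are tied to actin through beta- and alpha-catenin. Type I members (E-, P-, N-, R- and M-cadherin) hold epithelia and neuroepithelia together, and the exchange of E-cadherin for N-cadherin is a textbook feature of neural induction. Type II members and the delta-protocadherins adhere more weakly, are expressed in combinations in the developing brain, and are known for the sorting of neurons and the wiring of circuits.

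Values are log2 expression values made by the authors with RMA, and differences are log2 differences. Levels of different genes are not compared, because each gene has its own probes. A summed level of markers is led by its brightest genes and serves only to compare arrays. No detection call was used, so the median of all values, 9.005, served as a guide to dim genes. In these cultures fewer cells of a type and less RNA per cell cannot be told apart. A marker of each labelled cell type was high there: Pou5f1 stood at 13.02 in EpiSCs, Pax6 at 12.10 in the rosette, Pdgfra at 12.87 and 12.95 in OPCs, and Mag at 13.27 and 13.24 in oligodendrocytes. On the arrays of the other cell types each of these was at or below 9.59, except Pdgfra, which stood at 12.62 and 11.99 in oligodendrocytes. Nanog, Fgf5 and Otx2 were also highest in EpiSCs, Olig2 and Cspg4 in OPCs, and Mbp, Mog and Cnp in oligodendrocytes. Other markers were less specific. Nes stood at 11.69 in the rosette and 12.21 in passage 3 OPCs, and Sox1 at 10.12 and 10.01. Sox10 stood at 10.65 and 10.81 in OPCs and 11.32 and 11.47 in oligodendrocytes, and Olig1 was highest in passage 11 oligodendrocytes (12.91).

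Of the 35 members, 22 were above 9.005 on at least 1 array. The other 13 stayed between 6.22 and 8.97 on all 6 arrays. They were Cdh5 (VE-cadherin of endothelium), Cdh7, Cdh9, Cdh12, Cdh15 (M-cadherin of muscle), Cdh16 (a kidney cadherin), Cdh17 (a cadherin of gut and liver), Cdh18, Cdh23, Cdh26, Pcdh12, Pcdh17 and Pcdh20. Levels this low can be background. Over the 6 arrays 21 members (60.0%) ranged at least 2-fold and 16 (45.7%) at least 4-fold, against 28.5% and 7.92% of all genes, and this is a description of the set without a test.

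**Figure D1:**
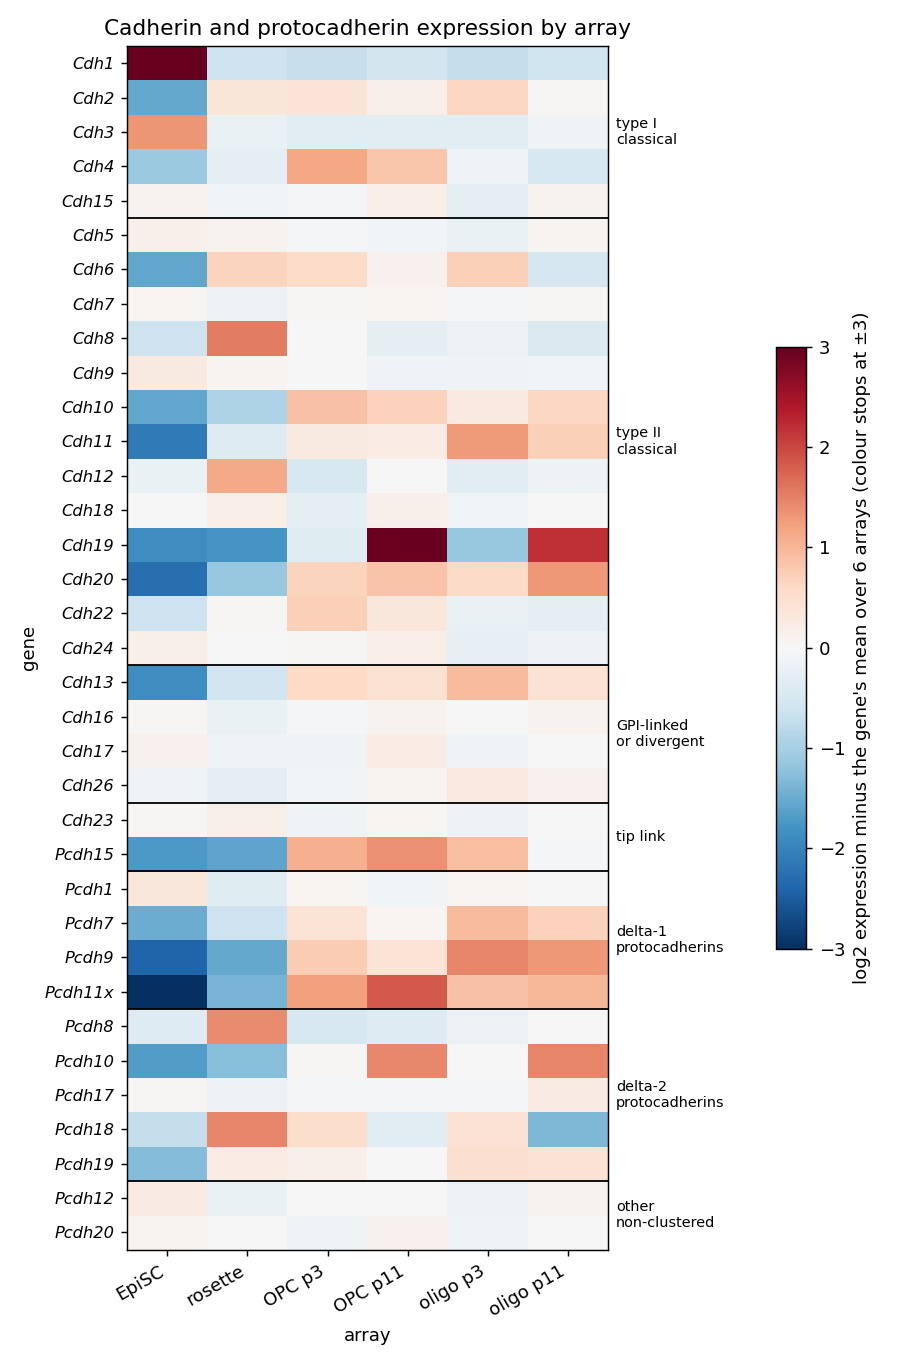
Heat map of the 35 members (rows, by subfamily) over the 6 arrays (columns, with p3 and p11 for passages 3 and 11), coloured by log2 expression minus the gene's mean over the arrays. Cdh1 and Cdh3 were high in EpiSCs alone, Cdh8 and Pcdh8 in the rosette, the delta-1 genes Pcdh9 and Pcdh11x in OPCs and oligodendrocytes, and Cdh19 and Pcdh10 at passage 11.

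Among type I cadherins the RNA of E-cadherin was lower and that of N-cadherin higher in the rosette than in EpiSCs. Cdh1, which encodes E-cadherin, stood at 12.18 in EpiSCs, 8.37 in the rosette, 8.29 and 8.44 in OPCs at passages 3 and 11, and 8.28 and 8.38 in oligodendrocytes. Every array after the EpiSC stage was therefore below 9.005, between 8.28 and 8.44. Cdh2, which encodes N-cadherin of neuroepithelium, stood at 10.76 in EpiSCs, 12.67 in the rosette, 12.69 and 12.45 in OPCs, and 12.92 and 12.33 in oligodendrocytes. Cdh2 was thus already above the median in EpiSCs, and its later arrays all lay above the value of the single EpiSC array.

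In the rosette Cdh1 was lower than in EpiSCs by -3.81 (14.0-fold) and Cdh2 higher by 1.91 (3.76-fold), each from 1 array a side and without a test. OPCs against EpiSCs were tested with limma (2 OPC arrays, 1 EpiSC array), and the unmeasured spread of the EpiSC culture was taken from the OPC and oligodendrocyte pairs. In OPCs Cdh1 fell, with a difference of -3.82 (SE 0.18, limma adjusted p = 0.0020) and Cdh2 rose by 1.81 (SE 0.29, limma adjusted p = 0.0275). The Cdh2 call was lost without the passage 3 OPC array (1.69, adjusted p = 0.0982) and without the passage 11 OPC array (1.93, adjusted p = 0.0722), whereas Cdh1 was called without either. OPCs minus rosette gave -0.0027 for Cdh1 (95% interval -0.45 to 0.44) and -0.10 for Cdh2 (-0.83 to 0.63), so the levels of the rosette and OPCs were not told apart within those limits.

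Cdh3, the gene of P-cadherin and the immediate chromosomal neighbour of Cdh1, was likewise lower in every later stage. It stood at 9.42 in EpiSCs, 7.89 in the rosette, 7.75 and 7.74 in OPCs, and 7.74 and 7.97 in oligodendrocytes. In OPCs it fell by 1.68 on the log2 scale against EpiSCs (SE 0.18, limma adjusted p = 0.0100), a call lost without the OPC array of passage 3 (-1.68, adjusted p = 0.0543) or of passage 11 (-1.67, adjusted p = 0.0581). Cdh4, which encodes R-cadherin, had another course, with 9.34 in EpiSCs, 10.20 in the rosette, 11.62 and 11.29 in OPCs, and 10.33 and 9.99 in oligodendrocytes. Cdh4 RNA was therefore highest in OPCs, and both OPC arrays lay above all others. Cdh4 rose by 2.12 in OPCs against EpiSCs (SE 0.24, limma adjusted p = 0.0108). Against the rosette it was at 1.25 (SE 0.24, adjusted p = 0.0687, or 0.0233 when passage was blocked).

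**Figure D2:**
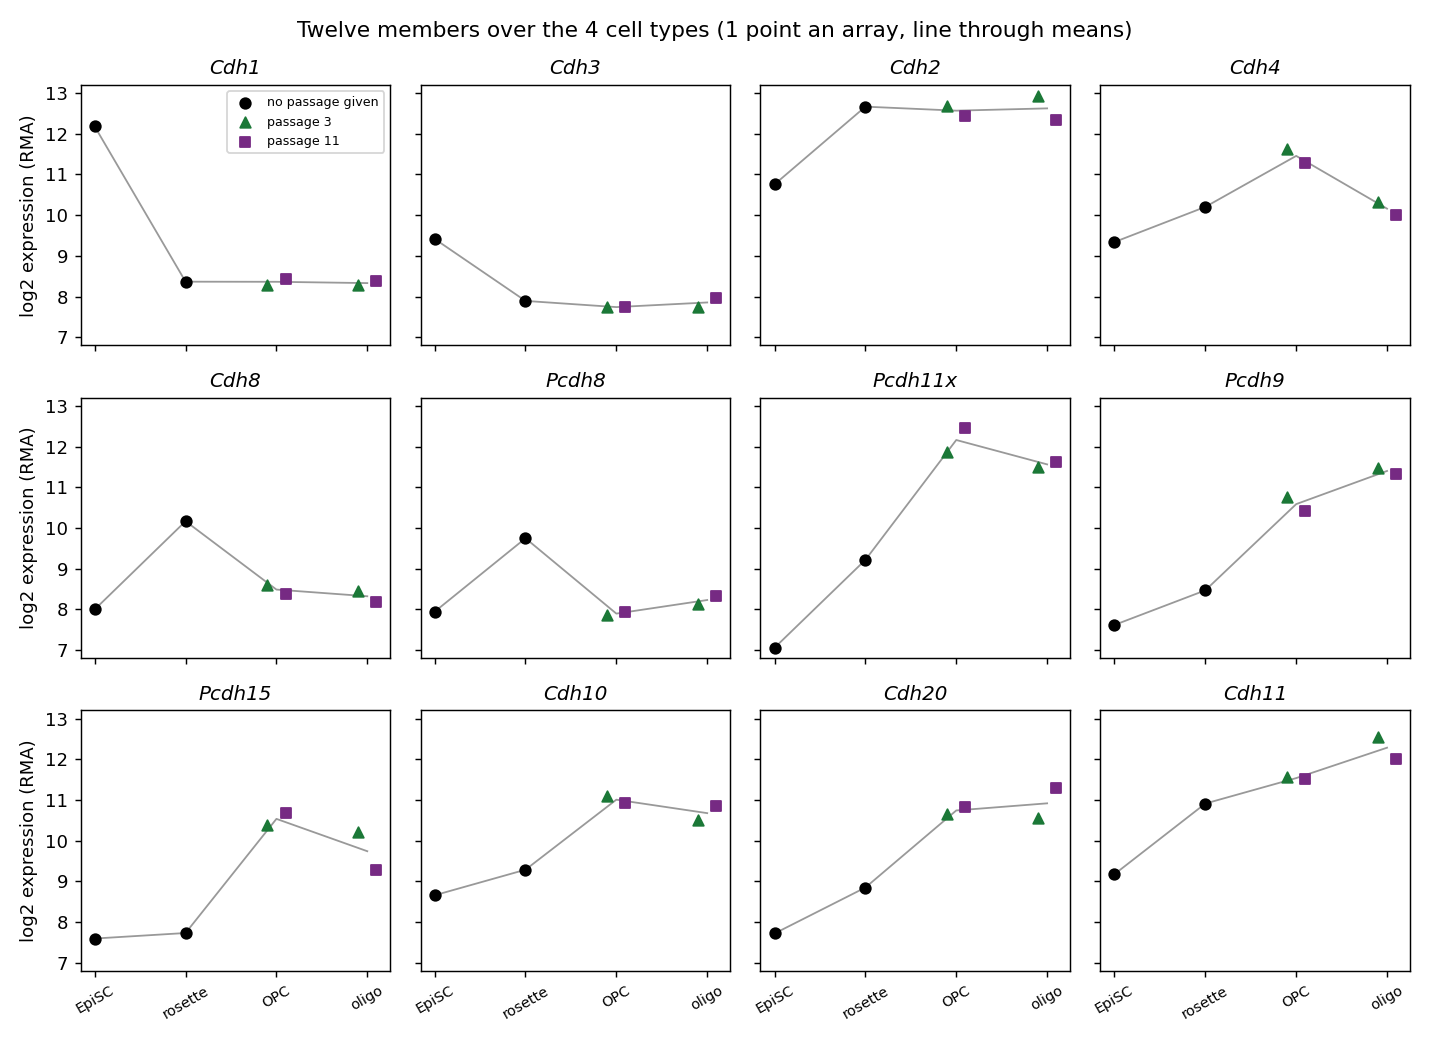
Log2 expression (vertical axis) of 12 members by cell type (horizontal axis), with 1 point for each array, triangles for passage 3, squares for passage 11, circles where no passage is given, and a line through the cell type means. Cdh1 is at 8.37 in the rosette and between 8.28 and 8.44 after it, Cdh8 and Pcdh8 peak in the rosette, and Cdh4 peaks in OPCs.

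Between the rosette and EpiSCs 13 members were at least 2-fold apart. Of these 11 were higher in the rosette (31.4% of members, against 6.91% of all genes) and 2, Cdh1 and Cdh3, were lower (5.71%, against 3.69% of all genes). At least 4-fold higher were 4, Cdh6 by 2.23, Pcdh18 by 2.18, Cdh8 by 2.17 and Pcdh11x by 2.16 (11.4%, against 1.75% of all genes), and 1, Cdh1, was at least 4-fold lower (2.86%, against 0.797%). The median over the members was 0.22, beside -0.07 over all genes. Among the 11 were 5 of the 13 type II genes, 3 of the 5 delta-2 protocadherins and 1 of the 4 delta-1 protocadherins.

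Cdh8 and Pcdh8 had a peak in the rosette. Cdh8, a type II cadherin of neuronal circuits, stood at 7.998 in EpiSCs, 10.17 in the rosette, 8.61 and 8.37 in OPCs, and 8.46 and 8.19 in oligodendrocytes. Pcdh8, a delta-2 protocadherin known as paraxial protocadherin in the embryo and as arcadlin in neurons, stood at 7.94, 9.75, 7.85 and 7.94, and 8.14 and 8.32 in the same order. For both genes the rosette array was the only one above 9.005. In OPCs against the rosette Cdh8 fell by 1.68 (SE 0.21, limma adjusted p = 0.0229) and Pcdh8 fell by 1.85 (SE 0.18, limma adjusted p = 0.0120). Both calls were lost when an OPC array was left out, with adjusted p of 0.0716 and 0.0660 without passage 3 and of 0.1225 and 0.0665 without passage 11.

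Cdh12, another type II gene, had the same shape at dim levels, with 8.04 in the rosette and 6.42 to 6.90 on the other 5 arrays. Its OPC minus rosette difference was -1.38 (SE 0.25, adjusted p = 0.0589, or 0.0290 when passage was blocked). Neuronal markers also peaked in the rosette. The summed level of Dcx, Tubb3, Elavl4 and Nefl, 4 of 4 above 9.005 on at least 1 array, was 11.67 in EpiSCs, 14.48 in the rosette, 12.19 and 12.02 in OPCs, and 12.06 and 11.74 in oligodendrocytes (log2 of the sum). The part of neurons in the rosette values was not tested.

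Cdh6 and Pcdh18 were also high in the rosette but did not drop to the EpiSC level by passage 3. Cdh6, a type II cadherin first known from kidney and also expressed in the early neural tube and neural crest, stood at 9.16 in EpiSCs, 11.39 in the rosette, 11.27 and 10.85 in OPCs, and 11.43 and 10.20 in oligodendrocytes. Its OPC minus EpiSC difference was 1.897 (SE 0.51), with a limma adjusted p of 0.105 that became 0.0280 when passage was blocked. Pcdh18 stood at 8.99 in EpiSCs, 11.17 in the rosette, 10.23 and 9.37 in OPCs, and 10.14 and 8.36 in oligodendrocytes. At each cell type its passage 11 array was the lower one. Pcdh19, a delta-2 protocadherin that is mutated in a human epilepsy of girls, stood at 7.75 in EpiSCs, 9.28 in the rosette, 9.20 and 9.05 in OPCs, and 9.54 and 9.48 in oligodendrocytes. Its later arrays all lay above the EpiSC array. It rose by 1.37 in OPCs against EpiSCs (SE 0.17, limma adjusted p = 0.0145, and 0.0979 or 0.0759 without the OPC array of passage 3 or 11).

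In OPCs against EpiSCs 12 members rose (34.3%, against 4.07% of all genes called higher) and 2 fell, Cdh1 and Cdh3 (5.71%, against 2.93%). The 12 were Cdh2, Cdh4, Cdh10, Cdh11, Cdh13, Cdh20, Cdh22, Pcdh7, Pcdh9, Pcdh11x, Pcdh15 and Pcdh19. They included 3 of the 4 delta-1 protocadherins, 4 of the 13 type II cadherins and 1 of the 5 delta-2 protocadherins. The count below with an OPC array left out is given without that over all genes, which also varied with the setting. The 14 calls became 9 with either OPC array left out. Cdh2, Cdh3, Cdh22 and Pcdh19 lost their call both times, Pcdh7 without passage 3 (adjusted p = 0.0705) and Pcdh15 without passage 11 (adjusted p = 0.0518).

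Against the rosette 4 members rose in OPCs, Pcdh11x, Pcdh15, Pcdh9 and Cdh10 (11.4%, against 1.26% of all genes), and 2 fell, Cdh8 and Pcdh8 (5.71%, against 1.87%). The 2 OPC arrays enter both this comparison and that with EpiSCs. Counts under the altered fits below are given without the count over all genes, which also varied with the setting. They are not results about the members apart from other genes. With passage as a block 12 members were called, 9 higher and 3 lower, which added Cdh4, Cdh12, Cdh13, Cdh19, Cdh20 and Pcdh10. Only Pcdh11x was called without the passage 3 OPC array, only Pcdh11x and Pcdh9 without the passage 11 OPC array, and 15 members were called with either oligodendrocyte array left out, arrays that bear on this comparison through the spread alone.

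Pcdh11x, an X-linked delta-1 protocadherin, had the largest OPC minus EpiSC difference of the 35 members. It stood at 7.06 in EpiSCs, 9.22 in the rosette, 11.86 and 12.46 in OPCs, and 11.50 and 11.62 in oligodendrocytes. It rose by 5.10 (34.4-fold) in OPCs against EpiSCs (SE 0.28, limma adjusted p = 0.0022) and by 2.94 against the rosette (SE 0.28, limma adjusted p = 0.0117). Pcdh9, also delta-1, stood at 7.62 in EpiSCs, 8.47 in the rosette, 10.76 and 10.41 in OPCs, and 11.48 and 11.32 in oligodendrocytes, so that it was higher at each stage than at the one before. It rose by 2.97 against EpiSCs (SE 0.22, limma adjusted p = 0.0038) and by 2.12 against the rosette (SE 0.22, limma adjusted p = 0.0141). A second measured transcript of Pcdh9 gave an OPC minus rosette difference of 1.69. Pcdh7, the third delta-1 gene called, stood at 8.13 in EpiSCs, 9.01 in the rosette, 10.03 and 9.68 in OPCs, and 10.56 and 10.31 in oligodendrocytes. Pcdh1, the fourth, stayed between 8.42 and 9.10 on all arrays and was not called in any comparison.

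Pcdh15, which forms the tip link of sensory hair cells together with Cdh23 and is used as an OPC marker in brain cell atlases, was higher in OPCs than in the rosette. It stood at 7.60 in EpiSCs, 7.73 in the rosette, 10.39 and 10.69 in OPCs, and 10.21 and 9.27 in oligodendrocytes. It rose by 2.80 in OPCs against the rosette (SE 0.41, limma adjusted p = 0.0335, and 0.0651 or 0.1005 without the OPC array of passage 3 or 11). A second measured transcript of Pcdh15 stayed between 8.55 and 9.08 on all arrays and differed by 0.14, and the mean of both gave 1.47 (adjusted p = 0.0319). Its tip-link partner Cdh23 stayed between 8.34 and 8.66 on all arrays.

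Among type II cadherins Cdh10 and Cdh20 were highest in the glial cultures. Cdh10 stood at 8.66 in EpiSCs, 9.29 in the rosette, 11.10 and 10.92 in OPCs, and 10.51 and 10.85 in oligodendrocytes, and it rose by 1.72 in OPCs against the rosette (SE 0.22, limma adjusted p = 0.0227, and 0.0998 or 0.0911 without the OPC array of passage 3 or 11). Cdh20 stood at 7.72 in EpiSCs, 8.85 in the rosette, 10.66 and 10.83 in OPCs, and 10.55 and 11.29 in oligodendrocytes. All 4 glial arrays of both genes were above the rosette. Cdh20 rose by 3.02 against EpiSCs (SE 0.33, limma adjusted p = 0.0096) and was at 1.89 against the rosette (SE 0.33, adjusted p = 0.0536, or 0.0260 when passage was blocked).

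Cdh11 and Cdh13 were more than 2-fold higher in the rosette than in EpiSCs, and their OPC minus rosette differences were not called. Cdh11, a type II cadherin known from osteoblasts and mesenchyme, stood at 9.18 in EpiSCs, 10.91 in the rosette, 11.56 and 11.52 in OPCs, and 12.56 and 12.01 in oligodendrocytes. Fibroblast and mesenchyme markers had a summed level of 11.69 in EpiSCs, 11.88 in the rosette, 11.35 and 11.34 in OPCs, and 11.96 and 11.59 in oligodendrocytes, with 4 of 6 above 9.005 on some array and Lum and Postn below it on all. Dcn stood at 10.07 and 9.06 in oligodendrocytes, against 8.49 and 7.75 in OPCs, and Postn at 8.89 and 7.97, against 7.06 and 7.31. Dcn and Postn were thus higher in oligodendrocytes, as was Cdh11. The other markers of the list, Col1a1, Col1a2, Col3a1 and Lum, differed by only 0.18, 0.13, 0.04 and 0.12 between oligodendrocytes and OPCs. The part of such cells in the Cdh11 values was not tested. Cdh13, which encodes the GPI-anchored T-cadherin, stood at 8.96 in EpiSCs, 10.25 in the rosette, 11.42 and 11.28 in OPCs, and 11.78 and 11.27 in oligodendrocytes. Against EpiSCs Cdh11 rose by 2.36 (SE 0.26, limma adjusted p = 0.0100) and Cdh13 rose by 2.40 (SE 0.26, limma adjusted p = 0.0092) in OPCs. Against the rosette Cdh11 was at 0.63 (95% interval -0.03 to 1.29, limma adjusted p = 0.355) and Cdh13 at 1.10 (SE 0.26, limma adjusted p = 0.109, or 0.0482 when passage was blocked). Cdh22, a type II cadherin of brain and pituitary, peaked in OPCs at 10.41 and 10.04, with 9.08 in EpiSCs, 9.72 in the rosette, and 9.50 and 9.42 in oligodendrocytes. It rose by 1.14 against EpiSCs (SE 0.22, limma adjusted p = 0.0440, or 0.0504 with dim genes left out and 0.0522 with a variance trend in eBayes).

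**Figure D3:**
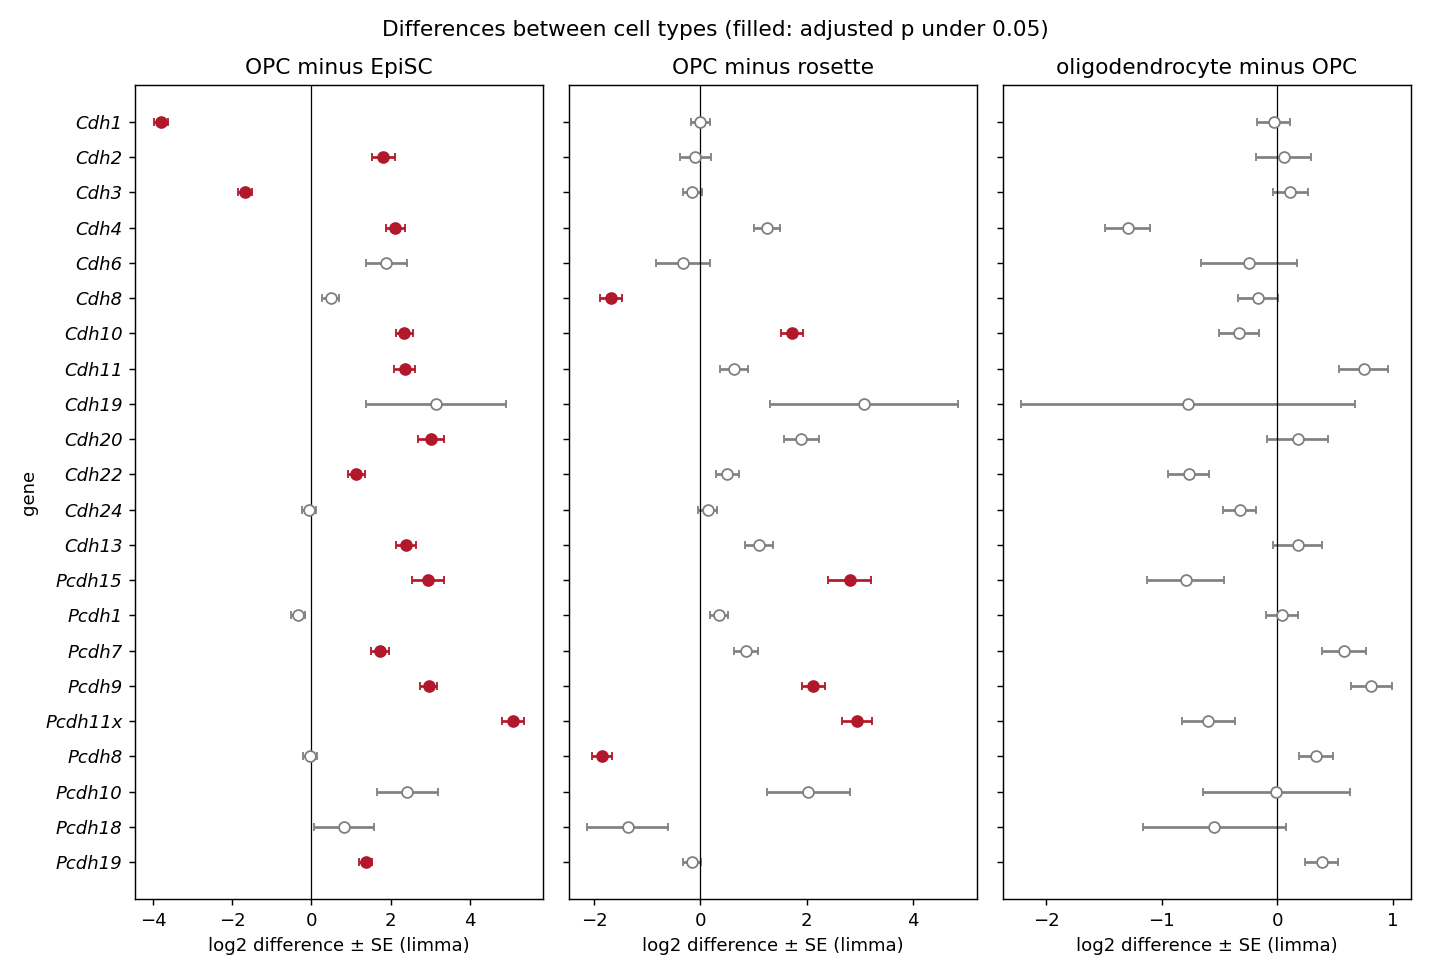
Log2 differences with SE (horizontal axis, each panel on its own scale) of the 22 members above 9.005 on at least 1 array, for OPC minus EpiSC, OPC minus rosette and oligodendrocyte minus OPC. Filled points passed limma at an adjusted p under 0.05: 14 in the first panel, 6 in the second and 0 in the third, and the bars of Cdh19, Pcdh10 and Pcdh18 are wide, as their passages differ.

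The upstream sequences of the genes that changed between the rosette and OPCs are shown so that genes that fell and genes that rose at the same step can be set side by side. The RefSeq promoter table (GRCm38.p6, the C57BL/6J reference and not strain 129) matched 22 of the 35 members, among them 5 of the 6 called here. Each line is the 250 bases before the annotated start, 5′ to 3′ on the gene's strand, with capitals for CANNTG, the E-box read by basic helix-loop-helix factors such as the Olig and neurogenin families. Where several starts were annotated for a gene, the most upstream one was used. Cdh8 and Pcdh8 fell, and Pcdh9, Cdh10 and Pcdh15 rose.
Cdh8 (chr8:99416472-99416721, minus strand): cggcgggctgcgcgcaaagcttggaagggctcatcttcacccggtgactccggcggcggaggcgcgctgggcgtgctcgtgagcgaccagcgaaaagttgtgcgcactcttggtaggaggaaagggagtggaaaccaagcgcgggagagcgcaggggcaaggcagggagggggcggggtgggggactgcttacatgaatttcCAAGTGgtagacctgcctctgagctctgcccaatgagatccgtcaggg
Pcdh8 (chr14:79771313-79771562, minus strand): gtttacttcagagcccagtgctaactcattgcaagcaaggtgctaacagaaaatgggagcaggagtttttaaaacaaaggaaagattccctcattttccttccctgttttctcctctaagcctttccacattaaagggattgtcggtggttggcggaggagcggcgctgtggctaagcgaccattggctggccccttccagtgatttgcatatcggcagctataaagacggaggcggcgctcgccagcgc
Pcdh9 (chr14:93890680-93890929, minus strand): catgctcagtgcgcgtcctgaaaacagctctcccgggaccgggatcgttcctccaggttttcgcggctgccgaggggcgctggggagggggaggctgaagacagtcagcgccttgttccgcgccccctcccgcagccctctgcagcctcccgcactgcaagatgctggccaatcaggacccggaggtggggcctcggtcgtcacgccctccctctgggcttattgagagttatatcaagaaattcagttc
Cdh10 (chr15:18820079-18820328, plus strand): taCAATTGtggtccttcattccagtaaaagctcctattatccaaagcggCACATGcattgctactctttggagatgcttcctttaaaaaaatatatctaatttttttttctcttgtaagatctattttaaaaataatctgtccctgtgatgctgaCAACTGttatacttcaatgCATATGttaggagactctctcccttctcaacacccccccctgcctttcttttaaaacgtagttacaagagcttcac
Pcdh15 (chr10:73821617-73821866, plus strand): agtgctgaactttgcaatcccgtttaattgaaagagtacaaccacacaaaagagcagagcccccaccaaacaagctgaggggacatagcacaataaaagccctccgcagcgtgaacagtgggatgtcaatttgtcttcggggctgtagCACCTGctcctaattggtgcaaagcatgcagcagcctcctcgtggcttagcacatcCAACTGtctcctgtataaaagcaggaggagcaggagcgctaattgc
The E-box CANNTG reads the same on both strands in its fixed letters. It occurred 1 time in the Cdh8 window, 4 times in that of Cdh10 and 2 times in that of Pcdh15, and no match lay in the windows of Pcdh8 and Pcdh9. At least 1 match was found in 66.2% of all 32851 windows of this length, so it is common. Of the 22 matched members, 12 had a match in at least 1 of their windows. That count is by gene and the share is by window, so they are not compared. The letters ACAAAG or CTTTGT, a core read by SOX factors, occurred in 16.5% of all windows. By gene, 5 of the 22 members had them in at least 1 window, among them Pcdh8 with 1 match in the lower-case stretch above. These matches describe the letters of the windows and do not show binding.

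Between oligodendrocytes and OPCs limma called none of the 35 members at an adjusted p under 0.05 (0.396% of all genes were called higher and 0.0502% lower). At an unadjusted limma p under 0.05 there were 7 of the 35 members, beside 2458 of all 19938 genes, and the median difference was -0.03, beside 0.00 over all genes. With 1 oligodendrocyte array left out, limma called 6 members without passage 3 and 4 without passage 11, Cdh4, Cdh22 and Pcdh9 both times, and with 1 OPC array left out it called 0. The lone array is then assumed to vary like the pair that is left. These counts are given without those over all genes, which also varied with the setting. The comparison of oligodendrocytes with OPCs uses the same OPC arrays as those above.

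Cdh4 was the member with the lowest adjusted p. It stood at 10.33 and 9.99 in oligodendrocytes at passages 3 and 11, against 11.62 and 11.29 in OPCs, a difference of -1.29 at passage 3 and -1.30 at passage 11. The groups did not overlap. The limma difference was -1.30 (SE 0.20, adjusted p = 0.0946), and it was not called with passage blocked (adjusted p = 0.0520), with arrays centred on their median (0.0503) or without the OPC array of passage 3 (0.431) or 11 (0.300). It was called only with the oligodendrocyte array of passage 3 (-1.46, adjusted p = 0.00027) or 11 (-1.13, adjusted p = 0.0030) left out, where the oligodendrocyte arm is 1 array and the spread comes from the OPC pair alone. Cdh4 alone among the members was apart by 2-fold or more at passage 3 and again at passage 11 (1 of 35 lower, 2.86%, against 0.371% of all genes lower, and 0 higher, against 1.14%).

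The other 6 with an unadjusted p under 0.05 were Cdh11, Cdh22, Pcdh7, Pcdh9, Pcdh11x and Pcdh19. Pcdh9 was at 0.81 (SE 0.18, adjusted p = 0.181), with 11.48 and 11.32 in oligodendrocytes, against 10.76 and 10.41 in OPCs. Cdh11 was at 0.75 (SE 0.21, adjusted p = 0.263), Pcdh7 at 0.58 (adjusted p = 0.319) and Pcdh19 at 0.39 (adjusted p = 0.368). In the 3 named last the oligodendrocyte arrays also lay above both OPC arrays. Cdh22 was at -0.77 (SE 0.18, adjusted p = 0.196) and Pcdh11x at -0.60 (adjusted p = 0.387), with both oligodendrocyte arrays below both OPC arrays. Pcdh15 differed by -0.17 at passage 3 and -1.42 at passage 11 (adjusted p = 0.430). Cdh2 was at 0.06 with a 95% interval of -0.54 to 0.65.

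Some members differed between cultures of passages 11 and 3. The oligodendrocytes were made from OPCs of the same passage, so the pairs are not separate evidence. Limma on the 4 OPC and oligodendrocyte arrays called none of the 35 members and none of all genes (0%), and at an unadjusted p under 0.05 there were 7 members and 2769 genes. The single residual degree of freedom of that fit reflects how alike the passage differences of OPCs and oligodendrocytes were. Of the members, 2 were at least 2-fold higher at passage 11 in both cell types, Cdh19 and Pcdh10 (5.71%, against 0.0602% of all genes, which is 12 genes), and 0 were at least 2-fold lower in both (against 0.336%).

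Cdh19, a type II cadherin known from Schwann cell precursors and other neural crest glia, stood at 10.57 in passage 11 OPCs, against 7.26 in passage 3 OPCs, and at 9.80 in passage 11 oligodendrocytes, against 6.48 in passage 3 oligodendrocytes. In EpiSCs it stood at 5.77 and in the rosette at 5.84, so the passage 11 arrays alone were above 9.005. The difference was 3.32 in OPCs (9.96-fold) and 3.32 in oligodendrocytes (9.99-fold), which ranked 1 of 19938 genes in each cell type. The limma difference was 3.32 (SE 0.11, adjusted p = 0.0928), the lowest adjusted p of all genes in that fit. The call was made with arrays centred on their median (adjusted p = 0.0158) and with a variance trend in eBayes (adjusted p = 0.0107). Blocking passage takes the passage difference out of the spread. The blocked p-values below therefore rest on how alike the passage differences of OPCs and oligodendrocytes were, not on the spread of separate cultures. The OPC minus rosette difference of Cdh19 was 3.08 (SE 1.77), with a limma adjusted p of 0.541 that became 0.0085 when passage was blocked. Against EpiSCs it was 3.15 (SE 1.77), with a limma adjusted p of 0.436 that became 0.0039 when passage was blocked.

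Neural crest and Schwann markers did not show a step of this size. Of 4 fixed markers 3 were measured, and their summed level was 11.37 and 11.87 in passage 11 OPCs and oligodendrocytes, against 11.26 and 11.74 at passage 3. Foxd3 stood at 8.24 and 8.23 at passage 11, against 8.22 and 8.25 at passage 3, and Ngfr at 9.12 and 9.29, against 9.10 and 9.14. Sox10, which OPCs also express, stood at 10.81 and 11.47 at passage 11, against 10.65 and 11.32 at passage 3. Cdh7, the neighbour of Cdh19 on its chromosome, stayed between 6.81 and 7.04 on all 6 arrays.

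Pcdh10, the delta-2 OL-protocadherin of growing axons, stood at 11.26 and 11.27 in OPCs and oligodendrocytes of passage 11, against 9.85 and 9.81 at passage 3, with 8.12 in EpiSCs and 8.53 in the rosette. The passage 11 arrays lay above all others, and the differences between passages were 1.41 in OPCs and 1.46 in oligodendrocytes. The limma difference was 1.43 (SE 0.11, adjusted p = 0.280). In OPCs Pcdh10 was at 2.43 against EpiSCs (limma adjusted p = 0.158, or 0.0050 when passage was blocked) and at 2.03 against the rosette (limma adjusted p = 0.307, or 0.0104 when passage was blocked). Pcdh18 was lower at passage 11, with 9.37 and 8.36 at passage 11, against 10.23 and 10.14 at passage 3, and a limma difference of -1.32 (SE 0.25, adjusted p = 0.357). In RefSeq order 1 protein-coding gene lies between Pcdh10 and Pcdh18. Cdh6 differed by -0.41 in OPCs and -1.22 in oligodendrocytes (-0.82, SE 0.23, adjusted p = 0.357).

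Smooth muscle markers were lower at passage 11 too. The summed level of Acta2, Tagln and Myh11 was 12.07 in OPCs and 12.25 in oligodendrocytes of passage 11, against 13.21 and 14.61 at passage 3, with 2 of 3 above 9.005 on some array and Myh11 below it on all. Astrocyte markers had a summed level of 13.19 in OPCs and 13.35 in oligodendrocytes of passage 11, against 13.81 and 13.34 at passage 3, with 3 of 3 above 9.005 on some array. That sum is led by Aldoc, which stood at 13.12 and 13.24 at passage 11, against 13.75 and 12.96 at passage 3. Gfap stood at 8.11 and 8.69 at passage 11, against 8.11 and 10.502 at passage 3, and Aqp4 at 7.84 and 8.47, against 8.27 and 9.89. The neuroepithelial marker Nes stood at 11.66 and 9.56 at passage 11, against 12.21 and 11.89 at passage 3, and Dcn was lower too, by -0.74 in OPCs and -1.004 in oligodendrocytes. In oligodendrocytes Gfap, Aqp4, Nes and Dcn were thus each lower at passage 11, as were Pcdh18 and Cdh6. Aldoc, and with it the astrocyte sum, was not lower there. Of the other neuroepithelial markers, Pax6 differed in oligodendrocytes by -0.17 and Sox1 by 0.18. Of the other fibroblast and mesenchyme markers, Postn differed there by -0.92, and Col1a1, Col1a2, Col3a1 and Lum by -0.19, -0.08, 0.05 and -0.03. The part of these cell types in the values of Pcdh18 and Cdh6 was not tested. Pcdh15 had opposite signs in the cell types, 0.30 in OPCs and -0.94 in oligodendrocytes (adjusted p = 0.607).

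**Figure D4:**
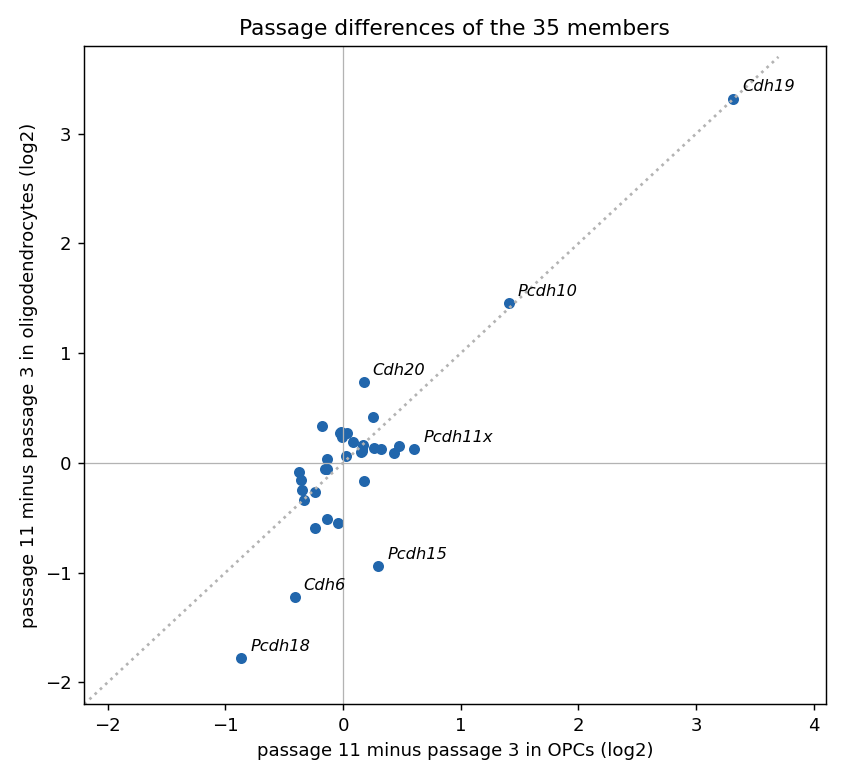
Passage 11 minus passage 3 (log2) in OPCs (horizontal axis) and in oligodendrocytes (vertical axis), with 1 point for each of the 35 members and a dotted line of equality. Cdh19 at 3.32 and 3.32 and Pcdh10 at 1.41 and 1.46 lie on or near the line, and Pcdh18 and Cdh6 are below 0 on both axes.

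Several members are chromosomal neighbours, and in RefSeq order no protein-coding gene lies between Cdh3 and Cdh1, Cdh7 and Cdh19, Cdh6 and Cdh9, Cdh9 and Cdh10, Cdh10 and Cdh12, Cdh8 and Cdh11, Cdh11 and Cdh5, or Pcdh20 and Pcdh9. Some neighbours of members that changed were dim on all arrays. Cdh9 stayed between 6.22 and 6.64 beside Cdh6 and Cdh10, Pcdh20 between 7.47 and 7.73 beside Pcdh9, and Cdh5 between 8.22 and 8.55 beside Cdh11.

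The genes that work with cadherins were taken from 3 lists, with 40 of 42 entries measured. Of 12 catenins and cytoplasmic partners, 2 rose in OPCs against EpiSCs (16.7%, against 4.07% of all genes) and 0 fell (against 2.93%). Ctnna2, the neural alpha-catenin, rose by 1.59 (SE 0.29, limma adjusted p = 0.0406) and Ctnnd2, the neural delta-catenin, rose by 2.29 (SE 0.20, limma adjusted p = 0.0050). Ctnna2 stood at 8.54 in EpiSCs, 10.75 in the rosette, 10.15 and 10.11 in OPCs, and 10.73 and 10.08 in oligodendrocytes. The widely expressed beta-catenin gene Ctnnb1 stayed between 13.00 and 13.30 on all arrays. None of the 12 was called in the other limma comparisons.

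Among 7 repressors of E-cadherin transcription, 2 rose in OPCs against EpiSCs (28.6%, against 4.07% of all genes), Zeb1 by 2.50 (SE 0.19, limma adjusted p = 0.0039) and Zeb2 by 1.38 (SE 0.19, limma adjusted p = 0.0191). Zeb1 stood at 10.00 in EpiSCs, 12.22 in the rosette, 12.39 and 12.61 in OPCs, and 11.78 and 11.66 in oligodendrocytes. Zeb2 stood at 9.80 in EpiSCs, 11.66 in the rosette, 11.16 and 11.19 in OPCs, and 11.98 and 11.71 in oligodendrocytes. Both were thus lowest in EpiSCs, the stage with the highest Cdh1, which is 1 array, and a part of Zeb1 or Zeb2 in the Cdh1 levels was not tested. Snai1, Snai2, Snai3, Twist1 and Twist2 were not called in any comparison and were within 2-fold on all arrays. The median of the list was -0.12 in OPCs against EpiSCs, beside -0.05 over all genes.

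Of 21 other genes of the cadherin superfamily, 6 were at least 2-fold higher in the rosette than in EpiSCs (28.6%, against 6.91% of all genes) and 2 lower (9.52%, against 3.69%). The 2 lower ones were the desmosomal cadherin genes Dsc2, at -1.48, and Dsg2, at -1.71, and both fell in OPCs against EpiSCs (9.52% of the list, against 2.93% of all genes, with differences of -1.28 and -1.55, limma adjusted p = 0.0349 and 0.0239). Dsc2 and Dsg2 were dim, highest in EpiSCs at 8.50 and 8.65 and so below 9.005 on all arrays, levels that can be background. Fat4, a giant cadherin of planar polarity and growth control, stood at 8.31 in EpiSCs, 11.25 in the rosette, 8.82 and 8.87 in OPCs, and 9.34 and 8.70 in oligodendrocytes. Celsr3, a seven-pass cadherin of axon tracts, stood at 8.66, 10.11, 8.47 and 8.43, and 8.78 and 8.54 in the same order. These too were highest in the rosette. In OPCs against the rosette Fat4 fell by 2.40 (SE 0.29, limma adjusted p = 0.0206) and Celsr3 fell by 1.66 (SE 0.19, limma adjusted p = 0.0175), the 2 of the 21 that were called there (9.52%, against 1.87% of all genes called lower). The other members higher in the rosette than in EpiSCs were Celsr2, Fat3, Dchs1 and Clstn2.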

How the data were processed

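The authors deposited log2 expression values, 1 per transcript and array. Per the submitters' processing notes they used RMA (Affymetrix Expression Console), a method that removes background, gives all arrays a common distribution and combines the probes of a transcript, which can compress differences of dim genes. Its version is not given in the sources used here. Deposited values ran from 3.26 to 14.87, with array medians of 8.60 to 8.66. Precision is limited by the number of arrays.

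Among 35556 measured transcripts, 21789 carried 1 gene symbol in the platform annotation and gave 19938 genes. All 35 members had the same symbol in RefSeq by Entrez ID. Tests were two-sided and came from lmFit and eBayes of limma 3.58.1 (R 4.3.3), with Benjamini-Hochberg adjustment over all genes and calls at an adjusted p under 0.05. All 6 arrays entered the fit by cell type (2 residual and 3.32 prior degrees of freedom). The passage fit used 4 arrays with cell type as a covariate (1 residual and 3.19 prior). The scripts were tested on simulated data. The labels do not say whether cultures were separate beyond their passage, so a p-value speaks only of the spread among these samples. Passage deviations of OPCs and oligodendrocytes, which the labels tie by passage, correlated at 0.50 across genes, and blocked values are given where they change a call. The blocked fit sets the EpiSC and rosette arrays, which have no passage, midway between the passages. Its residual spread reflects how alike the passage differences of OPCs and oligodendrocytes were, so its p-values do not measure the spread of separate cultures.

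Members described in full were those called, at least 4-fold apart between the rosette and EpiSCs with the brighter array above the median of all values, or at least 2-fold apart between oligodendrocytes and OPCs at both passages, with Cdh1 and Cdh2. Cdh19, Pcdh10 and other members outside these rules were chosen after their values were seen. The members and lists were chosen with earlier results of these data known.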

Additional observations from a re-analysis of the deposited data

How the results depend on the processing

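No member reversed its direction in any alternative, over 369 alternative values of single members, of which 303 kept their side of the threshold, 29 lost it and 37 gained it. Only members called or at least 2-fold apart in the main setting were entered. Several alternatives, such as the 4-fold limit, the variance trend and dim genes left out, cannot change a difference. Reversals were thus unlikely from the outset, and their absence is not evidence of robustness. Counts of called members below are given without those over all genes, which also varied with the setting. In OPCs against the rosette limma called 624 of all genes in the main setting and 807 with arrays centred on their median. The replicate block, with passage as a covariate, gave 12 called members in OPCs against the rosette, beside 6 without it. It gave 17 in OPCs against EpiSCs, beside 14, and 0 in oligodendrocytes against OPCs. The count of members apart between the rosette and EpiSCs was 13 at the 2-fold limit and 5 at the 4-fold limit. Between passages 1 member, Cdh19, was called with arrays centred on their median and 1, again Cdh19, with a variance trend in eBayes, beside 0. Leaving out 1 array gave 9 to 17 called members in OPCs against EpiSCs, 1 to 15 in OPCs against the rosette and 0 to 6 in oligodendrocytes against OPCs. In OPCs against EpiSCs and against the rosette the count fell with either OPC array left out and rose with either oligodendrocyte array left out. In oligodendrocytes against OPCs it was 0 with either OPC array left out and 6 or 4 with an oligodendrocyte array left out. With an oligodendrocyte array left out the spread comes from the OPC pair alone, and with an OPC array left out from the oligodendrocyte pair alone. The 95th percentile over genes of the absolute passage difference was 0.486 in OPCs and 0.905 in oligodendrocytes. The part of this in the counts was not tested. With dim genes left out, Cdh1, Cdh3, Cdh8, Cdh12, Cdh19, Pcdh8 and Pcdh19, among the members named, left the limma comparisons, because their mean over the arrays was at or below the median of those means, and Cdh22 lost its call against EpiSCs there and with a variance trend. No array could be left out of the passage fit, which would have no residual degree of freedom. No detection call was used, so members below 9.005 on all arrays cannot be told from background here, and a difference to a level below it may be understated.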

Other observations

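Cdh11 also appears in 3 measured transcripts that share their annotation with 6820431F20Rik and 2610005L07Rik, and these were left out because they name several genes. In the rosette they were higher than in EpiSCs by 0.56, 0.62 and 0.64, and they differed by -0.22 to -0.02 between OPCs and the rosette. The transcript with Cdh11 as its single symbol differed by 1.74 and 0.63 in the same comparisons.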
